A study of Mus musculus with 6 samples.

Results

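Lin28a, Lin28b, Hmga2, Igf2bp1, Igf2bp2 and Igf2bp3, genes of the Lin28/let-7 axis, are 6 of the 21883 protein-coding mouse genes read from the RefSeq annotation of GRCm38. They were chosen by name, with earlier results of these data known, and every called peak over a gene's span and 10 kb either side was read. The cells were neural stem and progenitor cells dissected at E13.5 from embryonic mouse forebrain and expanded in culture with EGF and FGF. They were kept for 24 h with water as the control or with 10 mM crotonate, a short-chain fatty acid salt from which cells make crotonyl-CoA. CUT&Tag, in which an antibody steers a transposase to the chromatin it binds, was run for H3K4me3, which marks promoters that are active or poised, and for H3K27me3, which Polycomb complexes lay over silent developmental genes. Each mark and treatment had 1 library with a peak list, which makes 4 of the 6 samples. The other two samples, with IgG, were not analysed here. Since a group was a single library, no difference has a replicate check, and no test was made.

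Lin28a and Lin28b are RNA-binding proteins of early embryos and progenitors. They bind let-7 precursors and keep these microRNAs from maturing, and Lin28a and Lin28b are themselves let-7 targets. As let-7 rises during development it represses the other genes of the set: Hmga2, an architectural chromatin protein with AT hooks that supports self-renewal of fetal neural stem cells, and the Igf2bp genes, whose protein products bind, stabilise and carry mRNAs such as that of Igf2. In the developing brain this axis is known for setting the change from early, proliferative to later progenitors.

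The let-7 sequences are shown because their shared seed is what makes them 1 family. The 12 let-7 genes looked up in the RefSeq microRNA table of GRCm38.p6 gave 9 different mature sequences. All of them had the same seed, bases 2 to 8, shown in capitals in the members whose loci are described below.
let-7i-5p: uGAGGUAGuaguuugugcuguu
let-7e-5p: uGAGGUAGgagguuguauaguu
let-7g-5p: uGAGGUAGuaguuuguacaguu
let-7d-5p: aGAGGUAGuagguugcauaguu
let-7f-5p: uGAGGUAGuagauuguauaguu
miR-98-5p: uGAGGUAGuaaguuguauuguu
The table lists mature sequences once per gene copy, except that let-7a is entered under let-7a-1 only, from where it was taken for let-7a-2. Of its 1738 mature entries, 13 had this seed, 11 of them from the 12 genes, and the other two were let-7k and miR-1961. Lin28 proteins are known to grip a GGAG motif in the loop of the precursor. Searched on the RNA strand after the mature 5p arm, GGAG was present in 9 of the 12 hairpins and was not found in those of let-7b, let-7c-2 and miR-98. Of all 1005 mouse hairpins in the table, 44.5% hold GGAG somewhere, so the motif alone does not mark let-7. The hairpins of let-7i and of miR-98 are an example of each, with GGAG in capitals where present.
let-7i hairpin: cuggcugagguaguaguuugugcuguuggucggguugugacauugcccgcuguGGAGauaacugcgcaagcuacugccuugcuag
miR-98 hairpin: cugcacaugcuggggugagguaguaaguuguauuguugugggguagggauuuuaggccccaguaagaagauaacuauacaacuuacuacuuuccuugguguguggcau

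The 4 lists held 13221 (water) and 16007 (crotonate) H3K4me3 peaks and 7643 and 15879 H3K27me3 peaks. In each list the summit pileup was a whole multiple of 1 step, so the number of fragments under every summit could be recovered. The median was 157 and 136 fragments for H3K4me3 and 31 and 15 for H3K27me3, in water and crotonate. From these steps and the lowest background, the crotonate library was estimated at 1.16 times the depth of the water library for H3K4me3 and 0.811 times for H3K27me3. Ranges given for fragments are exact Poisson 95% intervals, and those for ratios of fragments are exact conditional binomial ones. Both cover counting error only, and a summit is the highest point of its peak. The label of the cells was checked with marker genes: H3K4me3 lay in the window of 10 of 10 neural stem and progenitor genes in both lists, Sox2, Nes and Pax6 among them, though at Pax6 it did not reach a start in the promoter table. It lay at 4 of 6 neuronal genes in both, 1 of 4 microglia and blood, 1 of 3 endothelial and, in water, 0 of 3 fibroblast genes, and after crotonate at 1 of these 3 (Col1a1). Of 4 oligodendrocyte genes 1 had it in water and 2 after crotonate, and of 4 astrocyte genes 2 (Gfap and Aldh1l1) had it in both. Of all protein-coding genes 61.6% had it in water and 65.3% after crotonate. At Rbfox3 (neuronal), Aif1 (microglia) and Gfap the peak did not reach a start in the promoter table in either list. At Aldh1l1 it reached one after crotonate only. Of the pluripotency genes Pou5f1 alone had a peak in its window, which did not reach its annotated start, and Nanog, Zfp42 and Dppa4 had none.

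The 6 genes fell into 4 arrangements of the marks, which were the same in water and after crotonate at the annotated start. Hmga2 and Igf2bp2 carried H3K4me3 at the start and no H3K27me3 in the window. Igf2bp3 carried H3K4me3 at the start and H3K27me3 only upstream of it. Lin28b and Igf2bp1 carried both marks at a gene end, and Lin28a carried H3K27me3 without H3K4me3 at its start. Since these are bulk samples, a mark in few cells and a weak mark in all cells cannot be told apart, and 2 marks on the same bases can come from different cells.

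**Figure D1:**
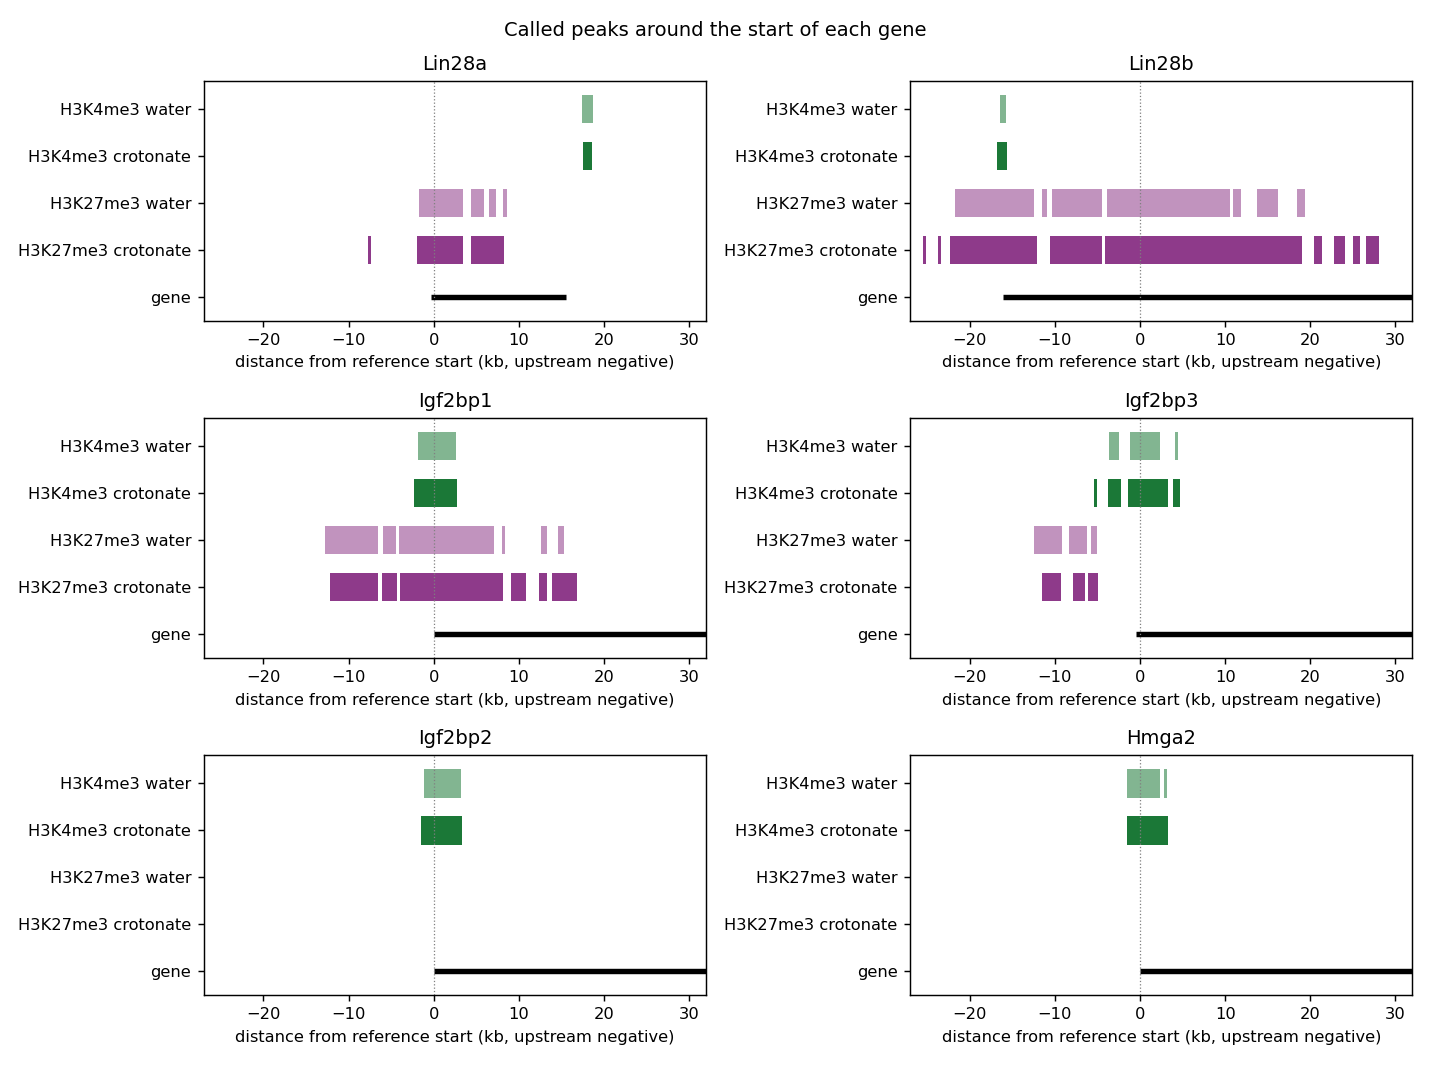
Peaks of the 4 lists around the 6 genes, drawn against distance in kb from the annotated start (for Igf2bp1 the gene end that carries H3K4me3), with the gene as a black bar and water in paler colour. H3K4me3 sits at 0 at Igf2bp1, Igf2bp2, Igf2bp3 and Hmga2, at the upstream gene end at Lin28b, and beyond the far end of Lin28a, where it covers the start of Dhdds. The peak edge at the far end of Igf2bp3, over Malsu1, lies outside its panel.

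Any H3K4me3 peak in the window was found at 6 of 6 genes in water, against 61.6% of all protein-coding genes, and at 6 of 6 after crotonate, against 65.3%. Any H3K27me3 peak was found at 4 of 6 in both lists, against 14.1% of all genes in water and 20.1% after crotonate. Bases under both marks were present at 2 of 6 genes in water (background 4.72%) and 3 of 6 after crotonate (8.50%). The presence of the marks was known when the genes were chosen, so nothing is read from these counts. No window changed between having a mark and having none. Among all genes 9.78% of windows without H3K4me3 in water had it after crotonate, and 0.0371% of those with it had none. For H3K27me3 these shares were 7.58% and 3.15%.

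Lin28a lies on chromosome 4 from 134003330 to 134019196, on the minus strand. Its start was covered by an H3K27me3 peak of 5231 bp in water, with 170 fragments (145 to 198) at the summit. After crotonate that peak measured 5383 bp, with 95 fragments (76.9 to 116). Its upstream edge lay 158 bp further out after crotonate, and its inner edge was all but the same. Downstream, 3 peaks of 477, 888 and 1590 bp in water were overlapped by 1 peak of 3956 bp after crotonate, which covered 2693 of their 2955 bp. A short peak of 357 bp with 10 fragments was called upstream after crotonate only. In total, H3K27me3 covered 8.19 kb of the window in water and 9.70 kb after crotonate, and 7918 bp were covered in both.

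The only H3K4me3 peak in the Lin28a window does not lie on the gene. It spanned chr4:134000116-134001435 in water and chr4:134000258-134001309 after crotonate, and in both lists it covered the annotated start of Dhdds, which encodes a subunit of the enzyme that makes dolichol. Its near edge was 1.90 kb from the end of Lin28a in water and 2.02 kb after crotonate, so a window of 2 kb counts it in water only. The summit held 192 fragments (166 to 221) in water and 184 (158 to 213) after crotonate, and these ranges overlap. Divided by the estimated depth ratio of 1.16, the fragment ratio of 0.958 was 0.826. The length was 1320 bp in water against 1052 bp after crotonate, with both edges drawn in. A pair is a water peak and a crotonate peak that overlap each other and no further peak. Of 12093 H3K4me3 pairs, 94.5% were longer after crotonate, and the ratio of 0.797 at Dhdds lay at percentile 0.513 of them. The background implied under it was 0.518 in water and 2.61 after crotonate, in units of scaled signal, and the part of that difference in the shorter peak was not tested. The authors' fold enrichment was 33.5 and 20.8. The H3K4me3 peak at the window of Lin28a in water was thus still called after crotonate, and by position it is that of Dhdds.

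The promoter of Lin28a, 250 bases before to 50 after the start (RefSeq, GRCm38.p6, chr4:134018767-134019066, minus strand), is shown because it lay inside H3K27me3 in both lists, with CG dinucleotides in capitals.
Lin28a promoter: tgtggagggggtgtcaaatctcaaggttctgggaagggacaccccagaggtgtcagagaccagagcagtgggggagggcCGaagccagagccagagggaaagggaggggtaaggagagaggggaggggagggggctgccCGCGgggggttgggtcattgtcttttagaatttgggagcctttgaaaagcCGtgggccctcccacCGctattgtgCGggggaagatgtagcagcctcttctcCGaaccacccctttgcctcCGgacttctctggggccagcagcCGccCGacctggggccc
It holds 10 CG, against a median of 13 over 21262 such windows of protein-coding genes, 95.4% of which hold at least 1. Windows under H3K27me3 alone in water had a median of 15 CG, those under H3K4me3 alone 23, those under both 26 and those under neither 3. The state of H3K27me3 alone was found at 4.03% of the windows in water, and 65.2% of those were still in it after crotonate.

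Lin28b lies on chromosome 10 from 45376617 to 45486314, also on the minus strand. The start in the RefSeq promoter table, at 45470201, lies inside the gene span, and its promoter window (8 CG) was under H3K27me3 alone in both lists. H3K4me3 was called instead at the upstream end of the gene span, which is not a start in the promoter table. There the peak measured 784 bp in water, with 32 fragments (21.9 to 45.2), and 1188 bp after crotonate, with 53 (39.7 to 69.3). The peak was among the weaker ones of the water list, at percentile 4.98 by −log10 q, and stood at percentile 30.1 of the crotonate list. The ratio of fragments as counted was 1.66 (1.05 to 2.65), the highest among the matched H3K4me3 peaks at the 6 genes. Divided by the estimated depth ratio of 1.16 it was 1.43, and the interval does not allow for depth. Peaks this weak in water tended to rise in general: over the 1194 pairs with under 50 fragments in water the median ratio was 1.29, and the Lin28b peak stood at percentile 78.6 of them. Its length ratio of 1.52 stood at percentile 43.0 of the same pairs, whose median was 1.66.

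All of the Lin28b H3K4me3 peak lay inside H3K27me3, 784 of 784 bp in water and 1188 of 1188 bp after crotonate. The H3K27me3 domain around it measured 9325 bp in water and 10293 bp after crotonate. Fragments at its summit numbered 337 (302 to 375) and 173 (148 to 201), a ratio of 0.513 (0.425 to 0.618). This fall was near that of other strong domains: 523 pairs with 100 or more fragments in water had a median ratio of 0.562, and this one stood at percentile 29.6. The domain over the start inside the gene was 1 peak of 23158 bp after crotonate, where the water list had 4 peaks of 18783 bp in all, the longest of 14336 bp. The summit held 192 (166 to 221) and 132 (110 to 157) fragments. Lin28b held the longest H3K27me3 coverage of the 6 genes, 34.6 kb in water and 45.0 kb after crotonate, 33566 bp of it in both lists. Of its crotonate peaks 6 had no counterpart in water. They were between 354 and 1538 bp long and held 9 to 20 fragments. A water peak of 607 bp with 20 fragments had no counterpart after crotonate.

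The third gene of the axis with Polycomb marking, Igf2bp1, encodes the RNA-binding protein also called IMP1 and ZBP1, which localises beta-actin mRNA. It lies on chromosome 11 from 95957163 to 96005944 and has no entry in the promoter table. Both marks lay over the end at 96005944. The H3K4me3 peak was long and low: 4526 bp in water with 84 fragments (67.0 to 104), and 5000 bp after crotonate with 89 (71.5 to 110). By length it stood at percentile 99 of the water list and 98.6 of the crotonate list, but by −log10 q at percentiles 26.1 and 38.9. Its ratio of fragments, 1.06 (0.777 to 1.44), spans no change. Every base of it lay in an H3K27me3 domain of 11162 bp in water and 12182 bp after crotonate. After crotonate this domain also overlapped part of a further water peak, of 355 bp. That domain had 293 fragments (260 to 329) and 154 (131 to 180), a ratio of 0.526 (0.430 to 0.641) at percentile 34.4 of the strong pairs. Igf2bp1 and Lin28b thus had H3K4me3 fully embedded in H3K27me3. Bases under both marks increased at 2 of these 2 genes, against 78.9% of the 1033 genes with such bases in water. At these 2 genes such bases are the H3K4me3 peak itself, so the increase restates that this peak was longer. Of all H3K4me3 pairs, 94.5% were longer. Inside the gene, peaks of 710 and 620 bp in water corresponded to peaks of 3018 and 947 bp after crotonate, and a peak of 1765 bp with 17 fragments was called after crotonate only. Coverage by H3K27me3 rose from 17.8 to 23.2 kb.

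Igf2bp3 (IMP3), a paralog with high expression in embryos and in many tumours, lies on chromosome 6 from 49085218 to 49215469, on the minus strand. Its H3K4me3 peak over the start measured 3463 bp in water and 4724 bp after crotonate. The summit held 186 (160 to 215) and 173 (148 to 201) fragments. Their ratio was 0.930 (0.752 to 1.15) as counted and 0.802 when divided by the estimated depth ratio of 1.16. The longer peak reached 983 bp further into the gene and 278 bp further upstream. The same peak covered the start of the lncRNA D030074P21Rik, which lies inside the gene. A second peak, 1.91 kb beyond the upstream gene end in water, held 224 (196 to 255) and 229 (200 to 261) fragments, and was 1196 and 1501 bp long. Inside the gene a peak of 295 bp with 30 fragments in water measured 824 bp with 41 after crotonate. Further upstream a peak of 384 bp with 38 fragments (26.9 to 52.2) was called after crotonate only. This was the only H3K4me3 peak without a counterpart at the 6 genes, so 1 of 6 genes had one, against 18.0% of all genes. Among genes at least 100 kb long the count was 1 of 4, against 22.2%. No gene of the 6 had an H3K4me3 peak in water without a counterpart after crotonate, against 0.489%.

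H3K27me3 at Igf2bp3 was called only upstream, from 4.48 kb beyond the gene end in water and 4.44 kb after crotonate. The 3 peaks measured 780, 2149 and 3252 bp in water and 1168, 1414 and 2259 bp after crotonate. The outer peaks shrank, with length ratios of 0.658 and 0.695 at percentiles 6.96 and 3.83 of pairs of similar height, and with 36 and 79 fragments in water against 20 and 45 after crotonate. Igf2bp3 was the only gene of the 4 whose H3K27me3 coverage fell, from 4.26 to 3.85 kb. The new H3K4me3 peak lay wholly on the innermost H3K27me3 peak, which gave 384 bp under both marks where there were 0 in water. Without shared bases in water, 4.34% of genes had them after crotonate. A peak over an end of Malsu1, a mitochondrial ribosome assembly gene whose span overlaps that of Igf2bp3, entered the window by its edge after crotonate only, and it was present in both lists.

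Igf2bp2 (IMP2), whose gene is known to be switched on by Hmga2 in several tissues, lies on chromosome 16 from 22059009 to 22163299, on the minus strand. Its single H3K4me3 peak measured 4350 bp in water and 4865 bp after crotonate. Fragments numbered 200 (173 to 230) and 183 (157 to 212), a ratio of 0.915 (0.745 to 1.12). The nearest H3K27me3 peak was 1464 kb away in water and 887 kb away after crotonate. Hmga2 lies on chromosome 10 from 120361268 to 120476469, on the minus strand. It had H3K4me3 peaks of 3863 and 313 bp in water, and 1 peak of 4777 bp after crotonate that covered both. Its fragments numbered 213 (185 to 244) and 203 (176 to 233), a ratio of 0.953 (0.782 to 1.16). The upstream edge stayed within 18 bp. On the gene side the crotonate peak joined the 2 water peaks and reached 124 bp past the inner one. The nearest H3K27me3 peak lay 160 kb away in water and 422 kb away after crotonate. At both genes the intervals of the fragment ratios as counted include 1. Divided by the estimated depth ratio of 1.16, the ratios were 0.789 (Igf2bp2) and 0.822 (Hmga2). The upper limits at Igf2bp2, 1.12, and at the start peak of Igf2bp3, 1.15, are below that depth ratio, which is an estimate without an interval. Ratios below it were general: the 8937 pairs with 100 or more water fragments had a median of 0.982 as counted. Igf2bp2 stood at percentile 24.5 of these pairs and Hmga2 at percentile 38.8. Both peaks were long, at percentiles 98.8 (Igf2bp2) and 97.8 (Hmga2) of length in the water list.

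The promoter windows of these 2 genes (RefSeq, GRCm38.p6, Igf2bp2 at chr16:22163250-22163549 and Hmga2 at chr10:120476420-120476719, both minus strand) are shown because they differ in sequence, though both lay under H3K4me3 alone. The rest of the sequence under the 2 peaks was not compared. CG is in capitals.
Igf2bp2 promoter: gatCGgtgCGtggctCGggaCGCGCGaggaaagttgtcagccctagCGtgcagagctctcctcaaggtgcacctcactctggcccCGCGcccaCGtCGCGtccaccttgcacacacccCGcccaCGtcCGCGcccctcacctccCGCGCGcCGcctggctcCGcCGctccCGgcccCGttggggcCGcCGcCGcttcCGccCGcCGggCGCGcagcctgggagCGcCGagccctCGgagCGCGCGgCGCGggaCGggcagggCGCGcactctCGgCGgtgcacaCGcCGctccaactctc
Hmga2 promoter: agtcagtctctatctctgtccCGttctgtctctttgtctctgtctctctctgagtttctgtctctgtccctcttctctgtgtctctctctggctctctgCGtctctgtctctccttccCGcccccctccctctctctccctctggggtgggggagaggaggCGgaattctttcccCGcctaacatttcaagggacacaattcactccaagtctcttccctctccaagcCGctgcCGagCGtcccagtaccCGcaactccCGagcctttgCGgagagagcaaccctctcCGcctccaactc
Igf2bp2 has 47 CG and is 76.7% G and C, at percentile 98.5 of all windows by CG. Hmga2 has 12 CG and 57.7% G and C, at percentile 49.1, and is rich in CT repeats. Igf2bp3 has 25 CG. All 3 windows were under H3K4me3 alone in both lists, a state of 49.6% of windows in water, of which 98.8% kept it after crotonate.

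**Figure D2:**
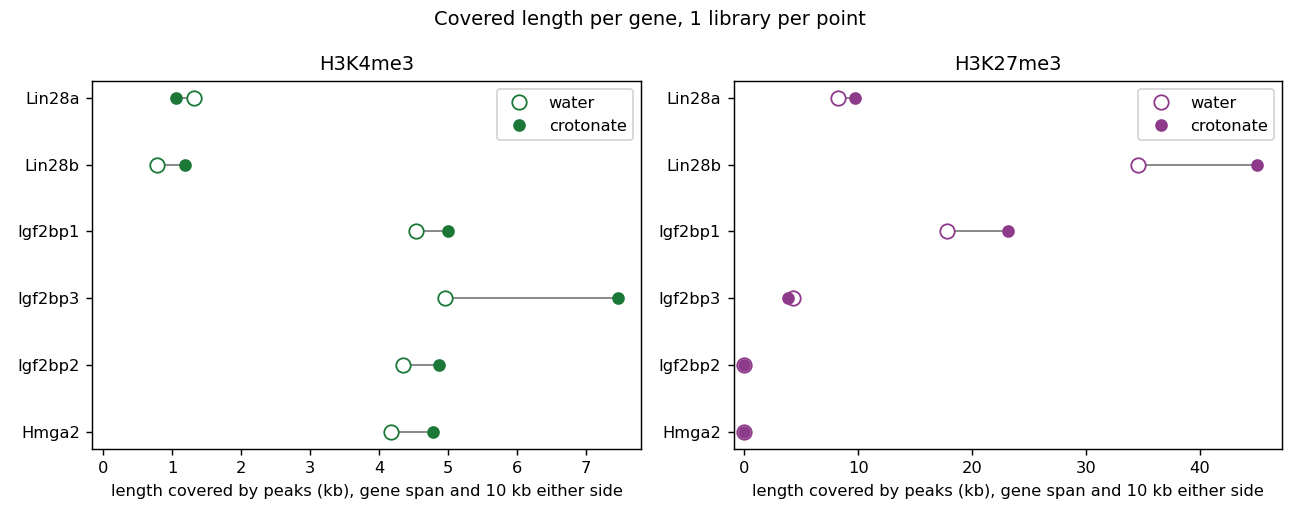
Length covered by peaks of each mark in the window of each gene, in kb, with 1 library per point and a line joining water (open) and crotonate (filled). H3K4me3 coverage is larger after crotonate at every gene but Lin28a, and H3K27me3 coverage is larger at Lin28a, Lin28b and Igf2bp1 and smaller at Igf2bp3.

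Set side by side, H3K4me3 covered more bases after crotonate at 5 of 6 genes, and Lin28a, whose only peak is that of Dhdds, was the exception. The background is 96.5% of all genes with the mark in both lists. Coverage of H3K4me3 after crotonate relative to water was 1.52 at Lin28b, 1.51 at Igf2bp3, 1.14 at Hmga2, 1.12 at Igf2bp2, 1.1 at Igf2bp1 and 0.797 at Lin28a. The median of the 6 was 1.13, and that of 13473 genes was 1.30. A ratio of at least 1.5 was reached by 2 of 6, against 28.2%. Both lie at that limit, and on the gene span alone, where they were 1.24 (Lin28b) and 1.49 (Igf2bp3), no gene reached it. H3K27me3 covered more bases at 3 of 4 genes, against 86.8%, with ratios of 1.30 at Lin28b, 1.30 at Igf2bp1, 1.18 at Lin28a and 0.904 at Igf2bp3. Their median was 1.24 and that of 2981 genes was 1.42, and 0 of 4 reached 1.5, against 45.2%. Under other settings 1 gene did: Igf2bp1 with 1.59 on the gene span alone, Lin28b with 1.60 at a fold enrichment of at least 5, and Lin28a with 1.79 at a −log10 q of at least 5. A crotonate H3K27me3 peak without a counterpart lay at 3 of 6 genes, against 14.5%, and among genes of at least 100 kb at 1 of 4, against 25.1%. A water H3K27me3 peak without a counterpart lay at 1 of 6, against 1.94%. With 6 genes these counts are small, the genes were chosen with these contrasts known, and nothing is read from them.

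**Figure D3:**
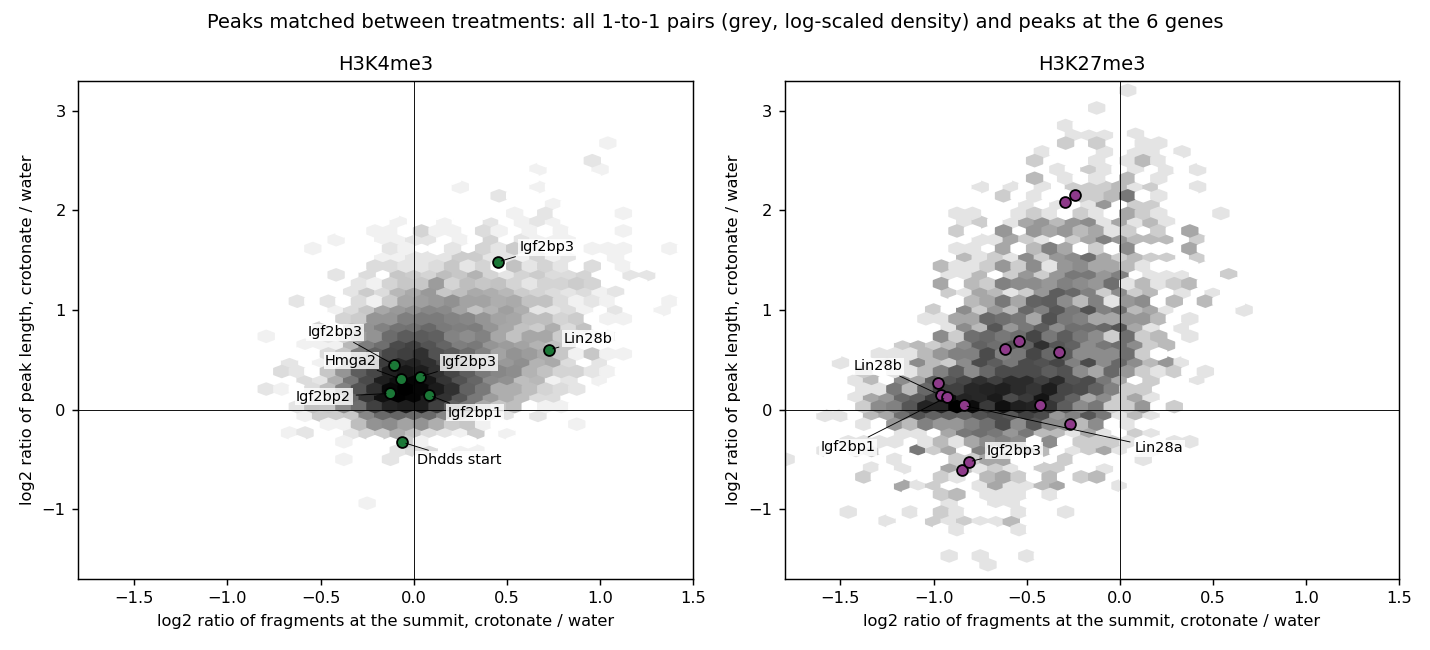
Each point is a crotonate peak and the strongest water peak it overlaps, by log2 ratio of fragments at the summit (x) and log2 ratio of length (y), for peaks at the 6 genes (coloured) over all 1-to-1 pairs of the mark (grey, log-scaled density). For H3K27me3 the strongest peak of each gene is named, and all points of the 4 genes lie left of 0, where fragments are fewer after crotonate.

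Height and length were also compared over pairs. Over all 12093 H3K4me3 pairs the median ratio of fragments was 1.01 and the median ratio of length 1.24. At the start peaks of Hmga2, Igf2bp1, Igf2bp2 and Igf2bp3 the fragment ratios lay between 0.915 and 1.06 and the length ratios between 1.1 and 1.36. At Lin28b both were higher, 1.66 for fragments and 1.52 for length. Hmga2 is not a pair, since its crotonate peak overlapped 2 water peaks, and its ratios are to the stronger of them. With both water peaks counted, its ratio of covered length was 1.14. Divided by the estimated depth ratio of 1.16, the fragment ratios were 0.789 (Igf2bp2), 0.802 (Igf2bp3), 0.822 (Hmga2), 0.913 (Igf2bp1) and 1.43 (Lin28b). The median of all H3K4me3 pairs was then 0.867. Over 3987 H3K27me3 pairs the median ratio of fragments was 0.714, in a library of 0.811 times the estimated depth, and the median ratio of length 1.30. At the strongest domain of Lin28a, Lin28b and Igf2bp1 the ratios of fragments lay between 0.513 and 0.559. Pairs of the same strength, with 100 or more water fragments, had a median of 0.562, and the domains stood at percentiles 49.3 (Lin28a), 29.6 (Lin28b) and 34.4 (Igf2bp1) of them. The Igf2bp1 domain is not itself a pair, as it overlapped 2 water peaks and was set against the stronger. Divided by the estimated depth ratio the 3 ratios came to 0.689, 0.633 and 0.648.

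For these 5 H3K4me3 peaks the authors' fold enrichment differed more between the lists than the fragments did. It is the scaled signal over a local background. At Igf2bp2 it was 6.62 in water and 26.4 after crotonate, though the summit held 200 and 183 fragments. The background implied there was 7.0 in water and 1.83 after crotonate, and 1 fragment counted for 0.26 in water and 0.40 after crotonate. At Hmga2 fold enrichment was 15.7 and 20.7, with backgrounds of 2.59 and 3.00. At Igf2bp3 it was 21.5 and 35.3, with 1.29 and 1.00, and at Igf2bp1 11.2 and 18.4, with 1.04 and 1.00. At Lin28b it was 4.66 and 13.2, with 1.00 and 0.696, and there the fragments rose as well. Higher fold enrichment after crotonate was thus seen at 5 of 5 start peaks. The share over all H3K4me3 pairs was not computed, so nothing about these genes is read from this count. Over the whole lists the median −log10 q was 37.7 in water and 57.5 after crotonate. The interval of the fragment ratio as counted lay above 1 at Lin28b only. Its lower limit there, 1.05, is below the estimated depth ratio of 1.16.

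**Figure D4:**
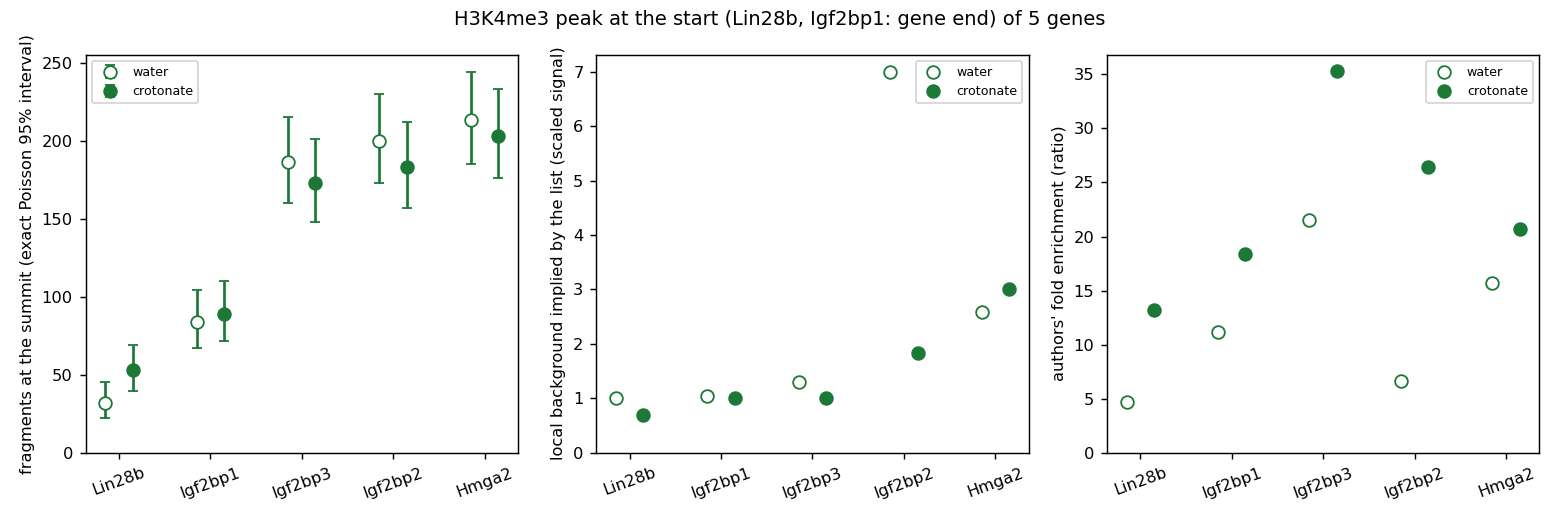
The H3K4me3 peak at the start of 5 genes (for Lin28b and Igf2bp1 at the marked gene end) in water (open) and crotonate (filled): fragments at the summit with exact Poisson 95% intervals, the local background implied by the list in scaled signal, and the authors' fold enrichment. Fold enrichment is higher after crotonate at all 5, while the fragment intervals overlap at all 5, with Lin28b going from 32 to 53.

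The let-7 genes themselves carried one mark or the other, or neither. H3K4me3 lay within 10 kb of 7 of the 12 in both lists, and H3K27me3 lay near 2 of the 12. Of protein-coding genes, 61.6% had H3K4me3 and 14.1% H3K27me3 in water, and 65.3% and 20.1% after crotonate. Their windows hold whole genes and those of let-7 a hairpin with its flanks, so the shares are not like measures. Let-7 genes that lie together also share peaks. None of the 12 had bases under both marks. Over let-7i the H3K4me3 peak covered the hairpin and measured 2.82 kb in water and 3.48 kb after crotonate, with 126 and 132 fragments. Near let-7e a peak of 3.02 kb ended 1.33 kb from the hairpin in water, and one of 4.16 kb ended 0.369 kb from it after crotonate, with 170 and 174 fragments. The cluster of let-7a-1, let-7f-1 and let-7d on chromosome 13 had 1 peak nearby, of 1.69 and 2.32 kb, which the 3 genes share. The peak near let-7g covered the start of Wdr82 and held 215 and 207 fragments. Near let-7c-1 a water peak of 0.936 kb with 32 fragments and a crotonate peak of 0.416 kb with 20 did not overlap. Let-7f-2 and miR-98 lie together on chromosome X among short H3K27me3 peaks that covered 6116 bp around let-7f-2 in water and 6500 bp after crotonate. The peak over the let-7f-2 hairpin, 0.527 kb with 19 fragments, was called in water only. For let-7a-2, let-7b and let-7c-2 no peak of either mark was called within 10 kb.

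Of the 12 genes for let-7 processing and decay, 11 carried H3K4me3 in water and 12 after crotonate, against 61.6% and 65.3% of all genes. A crotonate peak without a counterpart lay at 5 of them, against 18.0%. H3K27me3 lay at 0 of 12 in water. Drosha and Dgcr8, which make up the microprocessor, Dicer1, which cuts the precursor, and Tut4, Tut7 and Dis3l2, which tail and degrade Lin28-bound let-7, all had H3K4me3 over their start in both lists. H3K4me3 coverage at Dicer1 was 1775 bp in water and 3295 bp after crotonate, and at Drosha 2345 and 2341 bp. Trim25, a cofactor of Lin28a in let-7 tailing, had no peak in water and one of 733 bp over its start after crotonate. Khsrp, which promotes let-7 processing, was the 1 gene with an H3K27me3 peak after crotonate, 576 bp long and away from its start.

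Among 18 other let-7 targets, 18 carried H3K4me3 in both lists, against 61.6% of all genes in water and 65.3% after crotonate. At 16 of the 18 it covered more bases after crotonate. Of all genes 96.5% of those with the mark in both lists did so. The median ratio of the list was 1.14, below the 1.30 over all genes. H3K27me3 lay at 4 of the 18 (background 14.1% in water and 20.1% after crotonate), Trim71, Arid3a, Arid3b and Igf1r, and all 4 had bases under both marks in both lists (background 4.72% and 8.50%). Trim71, the Lin41 ubiquitin ligase and a classic let-7 target, had 4633 bp under both marks in water and 3434 bp after crotonate, as its H3K27me3 shrank from 5342 to 4199 bp and no longer reached its annotated start. At Arid3a, a DNA-binding protein, the bases under both marks rose from 391 to 1850, and at Arid3b they fell from 1543 to 784. Igf1r, the receptor of IGF1 and IGF2, had 544 and 715 bp, but these lay beside the gene. Its only H3K27me3 peak measured 11.7 kb in water and 15.5 kb after crotonate. Of it 8686 and 8755 bp lay inside the window, in the 10 kb flank, and it did not reach the gene span. Nr2e1, the Tlx receptor that maintains neural stem cells, had H3K4me3 over 7813 and 8328 bp and no H3K27me3.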

How the data were processed

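CUT&Tag peak lists of 4 libraries (H3K4me3 and H3K27me3, water and crotonate) were used. The submitters' processing notes name MACS2 2.2.7.1, Picard 2.22.0, SAMtools 1.10 and Bowtie2 2.4.1, with GRCm38 as genome build. For settings, duplicate handling and background library the answer is "not given in the sources used here". Per the file headers, the deposited columns are the position and length of each peak, the pileup signal at the summit, fold enrichment as a ratio to local background, and −log10 p-value and −log10 q-value. Each list was called on 1 library.

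Fragments at a summit were the pileup divided by the list's step, found as the largest step of which 100% of pileups are whole multiples within 0.006. Background was implied from fold enrichment read as a ratio with 1 added to both terms, a reading the headers do not state. From it −log10 p came within 1% of the deposited value for 99.5% or more of peaks in each list. Depth ratios rest on the lowest background divided by the shortest peak length and by the step, and assume scaling of every library to the one behind its background. That assumption was not tested. Fragment totals are not given.

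Peaks were shared when they overlapped by at least 1 bp. A pair is 1 water and 1 crotonate peak that overlap each other alone. Percentiles at similar height are among pairs with under 50, 50 to 99, or 100 or more water fragments. Gene spans, promoter windows and microRNAs came from RefSeq tables of GRCm38.p6: 5 of the 6 genes had a promoter entry, and Igf2bp1 did not. Python 3.11.15, numpy 2.4.6, pandas 2.3.3, scipy 1.17.1 and matplotlib 3.10.9 were used, and the scripts were tested on simulated data. All 6 members are reported, with lists for let-7 genes, processing, targets, Igf2bp-bound RNAs and cell types; the nearest protein-coding gene on each side was looked up. Members and lists were chosen with earlier results of these data known. Alternatives changed the window, the peak threshold, the overlap and the peaks counted.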

Additional observations from a re-analysis of the deposited data

How the results depend on the processing

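No paired analysis was possible because each group holds 1 library. The number of genes with more H3K4me3 coverage after crotonate stayed at 5 and that with more H3K27me3 coverage at 3 under all 10 alternatives. The overlap setting could not change these counts, since it enters only whether a peak has a counterpart. At a −log10 q or a fold enrichment of at least 5, Lin28b stayed among the 5 because its water H3K4me3 coverage was then 0. Genes with H3K4me3 in the window fell from 6 to 5 in both lists with the gene span alone or, in an alternative chosen after seeing the data, without peaks over the ends of other genes, since the peak at Dhdds then leaves Lin28a with 0. With 2 kb either side this happened after crotonate only. The Lin28b H3K4me3 peak in water was lost at a −log10 q of at least 5 and at a fold enrichment of at least 5. Genes with bases under both marks in water then numbered 1, and genes with an H3K4me3 peak in crotonate only numbered 2. That number was 0 with 2 kb either side or the gene span alone, where the peak upstream of Igf2bp3 falls outside. Genes with bases under both marks after crotonate (3 in the report) numbered 2 in those 2 settings and with peaks of at least 500 bp, as Igf2bp3 then had none. Genes with H3K27me3 fell from 4 to 3 in both lists with 2 kb either side or the gene span alone. Genes with an H3K4me3 coverage ratio of at least 1.5 (2 in the report) numbered 0 on the gene span alone and 1 with 20 kb either side, at a −log10 q of at least 5 and at a fold enrichment of at least 5, the last 2 settings giving no ratio for Lin28b. For H3K27me3 (0 in the report) the number was 1 on the gene span alone, at that −log10 q and at that fold enrichment. The Lin28a H3K27me3 coverage ratio was 1.79 at a −log10 q of at least 5. A reciprocal overlap of 50% raised the genes with a water peak without a counterpart to 2 for H3K4me3 and 3 for H3K27me3. The latter was 0 at a −log10 q of at least 5. With a minimum of 30 fragments for H3K4me3 and 20 for H3K27me3, chosen after seeing the data, H3K27me3 peaks without a counterpart lay at 1 gene after crotonate and 2 in water. The start peak of H3K4me3 was longer after crotonate at 5 of 5 genes, at 4 by bases within 2 kb of the start, and at 3 by percentile of length within its list, where Igf2bp1 and Igf2bp2 stood lower. By bases within 2 kb the exception was Hmga2, with 3498 bp in water and 3480 bp after crotonate.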

Other observations

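The mRNAs bound by the Igf2bp proteins and the IGF ligands showed the marks at both extremes. Igf2, the fetal growth factor after whose mRNA the Igf2bp proteins are named, was covered by H3K27me3 over 15024 bp in water and 19210 bp after crotonate, and had an H3K4me3 peak of 542 bp over an annotated start after crotonate only, wholly on H3K27me3. H19, the noncoding neighbour of Igf2, had a short H3K4me3 peak of 315 bp in water and 532 bp after crotonate. Actb, whose mRNA Igf2bp1 carries, had 5184 and 7492 bp of H3K4me3 and no H3K27me3. Cd44, a cell surface receptor gene, had 1238 and 2589 bp. At Ptgs2 a peak of 336 bp over the start was called after crotonate only. At Igf1, H3K4me3 covered 1075 bp in water and 1689 bp after crotonate, and it reached the start in the promoter table after crotonate only. Of the 6 genes 4 had an H3K4me3 crotonate peak without a counterpart in water, against 18.0% of all protein-coding genes.

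The genes on either side were also read, with 2 kb around each. Dhdds, 2.37 kb from Lin28a, Hace1 beside Lin28b, Senp2 and Tra2b beside Igf2bp2 and Llph beside Hmga2 had H3K4me3 and no H3K27me3 in either list. B4galnt2, 42.2 kb from Igf2bp1, had no H3K4me3, and its longest H3K27me3 peak measured 12.7 kb in water and 18.7 kb after crotonate. Crybg2, 41.5 kb from Lin28a, had no H3K4me3 and an H3K27me3 peak of 1.79 kb in water and up to 3.45 kb after crotonate. Bves, 4.13 kb from Lin28b, had both, with H3K4me3 of 1.19 and 1.5 kb.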
